A study of Nicotiana tabacum with 39 samples.

Results

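The 40 transcripts described here stood high in tobacco leaves at the end of a long darkness and were above untreated leaves on the later days of light. They were chosen by their measured levels, from 53725 transcripts counted in every library. Levels are CPM, the count of a transcript divided by the total count of its library and multiplied by 1000000. A transcript was taken where its highest group mean was at 0, 5 or 10 min of light and its mean at 0 min was at least 5 CPM and at least 3 times the control mean. Its means at 16, 40 and 64 h and 6720 min each also had to be at least 2 times the control mean, with 0.1 CPM added to each mean in every ratio. The peak condition left 13671 transcripts, the minimum level 6694 and the 3-fold condition 1160. The late floor then kept 40 and dropped 1120, which are called the other dark-raised transcripts below. Members are ranked by the lowest of their 4 late ratios to control. The ratios just inside the floor were 2.014, 2.01 and 2.009, and those just outside were 1.991 and 1.975 behind one that rounds to 2.

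The leaves came from Nicotiana tabacum, cultivated tobacco, an allotetraploid that carries closely matching copies of many genes. Whole plants were grown on soil in long days to near maturity and then darkened until the young growing leaves were pale. The control plants had no darkness, the 0 min plants were harvested at the end of darkness, and 11 groups were taken in light. Their times after the end of darkness were 5, 10 and 30 min, then 1, 2, 4 and 8 h, and on later days 16, 40 and 64 h and 6720 min, which is 4 days and 16 h. Each of the 13 groups had 3 libraries of polyA RNA, and each library pooled the middle sections of 2 leaves from each of 3 plants. No genotype other than the species is given, nor are the length of darkness and the clock time of the control harvest. No darkened plants were sampled at the light times, so time in light and time of day cannot be told apart in the steps up to 16 h. The times 16, 40 and 64 h and 6720 min lie whole days apart. With the clock time of the control unknown, a difference from control cannot be told apart from a difference in time of day. From 16 h to 6720 min, time in light cannot be told apart from plant age. Library totals ran from 15844109 to 37269515 counts, and the mean correlation of a library with the others of its group ran from 0.9552 to 0.9852.

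In darkness a leaf loses its supply of sugar from photosynthesis, and genes for recycling of amino acids, lipids and cell components are known to be raised in starved leaves. Darkness also leaves the phytochrome and cryptochrome light receptors inactive, so that factors which hold back greening stay active. On return to light, etioplasts, the plastids of pale tissue, become chloroplasts, and many transcripts raised in darkness are known to fall within hours. Which of these processes the 40 transcripts belong to is not known here, because the tables name transcripts by NCBI GI number and none of the 53725 numbers (0 matches) could be paired with a gene. Members are therefore given by rank, and 4 of them by identifier. No sequence is shown for the same reason. In whole leaf tissue, fewer cells of a type and less RNA per cell cannot be told apart.

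Members differed widely in level. Their control means ran from 0.2558 to 28.4 CPM with a median of 3.372 CPM, and 5 members had a control mean under 1 CPM. At 0 min the means ran from 6.64 to 900.3 CPM with a median of 19.17 CPM. The highest mean was at 5 min in 19 members, at 10 min in 16 and at 0 min in 5. All 40 members passed the low-count filter used for testing. At 0 min all 40 were above control at an adjusted p below 0.05 in edgeR's quasi-likelihood test, as were 25.6% of the 42181 transcripts tested. At 6720 min all 40 were above control, beside 19.3% of the transcripts tested. The rule used both of these contrasts, so the counts describe the selection.

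Several members lie side by side in the numbering of the tables. The 40 fall into 30 stretches of neighbouring numbers, of which 23 hold 1 member, 4 hold 2 and 3 hold 3 or more. Only directly adjacent entries were joined, so closely alike members further apart count as separate stretches. Ranks 7 and 14 are such members, with means of 21.54 and 21.73 CPM at 0 min and 5.522 CPM each at 2 h. The 10 neighbouring pairs had Pearson correlations of 0.9541 to 0.9982 over the 39 libraries, computed on log2 CPM with 1 added. These pairs share libraries and were selected on the same course. The ranks 5, 6 and 8 form 1 such stretch. Neighbours may be copies or overlapping models that share reads, which was not tested, so counts of members are not counts of independent genes. Taking the best-ranked member of each stretch, an alternative chosen after the data were seen, the median ratio to control was 7.367 at 0 min, 2.13 at 2 h and 4.593 at 6720 min.

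Relative to control, the members were lowest in the median at 2 h of light, where 6 of the 40 had a mean below control. Their median ratio to control was 7.219 at 0 min and 5.535 at 30 min, was 3.168 by 1 h and was lowest, 2.217, in the 2 h group. It stood at 3.362 after 4 h and 3.991 after 8 h. A second, smaller low of 2.738 came at 16 h, followed by 3.341 at 40 h, by 3.868 at 64 h and by 4.33 at 6720 min. Of the 40 members, 2 had a mean below control at 1 h, and none (0) did at times other than 1 h and 2 h. The share below control at 2 h was 15% in the members and 15.89% (178 of 1120) in the other dark-raised transcripts. At 1 h these shares were 5% and 3.929%. A mean below control at these times was thus about as frequent in both lists, and it was not counted over all transcripts. At 2 h 24 members had a mean at least 2 times control. The group with the lowest mean between 30 min and 8 h was that of 2 h in 27 members, of 8 h in 6, of 4 h in 5 and of 1 h in 2. In 30 of the 40 members all 3 libraries at 2 h were above all 3 control libraries, as in 29.8% of the transcripts tested, and the same held for 660 of the 1120 other dark-raised transcripts (58.93%). The control and the dark level were both used by the rule, so these counts at 2 h describe the members.

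The other dark-raised transcripts took a different later course. Their median ratio to control was 3.967 at 0 min and 1.508 at 2 h, then 1.23 after 4 h and 1.115 after 16 h, with 1.174 at 6720 min. The late part of this gap follows from the floor that separated the lists, and the difference between the lists was not tested.

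**Figure D1:**
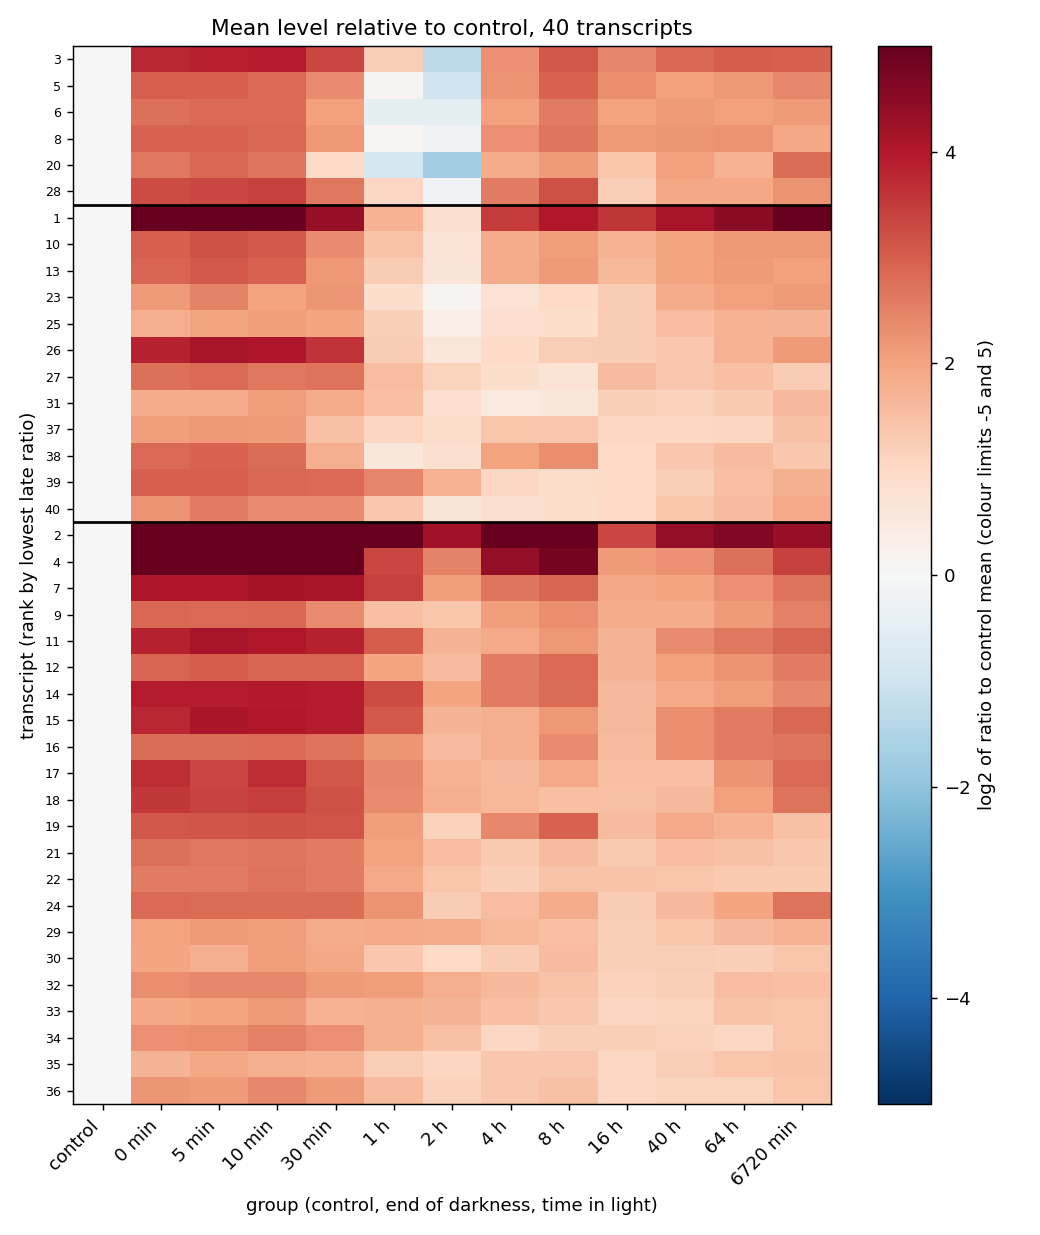
Mean level of each of the 40 transcripts (one row each, labelled by rank) in the 13 groups (columns), as log2 of its ratio to the control mean, with red above control and blue below and colours ending at -5 and 5. Horizontal lines part the 6 members whose lowest mean between 30 min and 8 h was below control, the 12 at 1 to 2 times control and the 22 at 2 times control or more. The top block turns blue at 2 h and red again from 4 h.

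Split by the lowest mean from 30 min to 8 h, 6 members had a mean below control, 12 had one at 1 to 2 times control and 22 never had a mean below 2 times control. The 6 are the ranks 3, 5, 6, 8, 20 and 28. The summed level of all 40 members was 193.4 ± 1.136 CPM in control (SD, n = 3), 2641 ± 211.4 CPM at 0 min, 417.1 ± 119.5 CPM at 2 h and 1180 ± 45.76 CPM at 6720 min. The rank 2 transcript alone held 900.3 CPM at 0 min. Without it the sums were 191.8 ± 1.589, 1741 ± 73.66, 384.6 ± 105.7 and 1144 ± 56.58 CPM.

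The first hours in light show which members fell. The rule set no threshold on these steps, but its peak condition kept the means at these times from exceeding the early peak. From 30 min to 1 h, 14 of the 40 members fell at an adjusted p below 0.05, against 4.40% of the transcripts tested, and none rose (0). Among the other dark-raised transcripts 491 of 1120 fell. With the replicate number as a block, which paired the samples of these times, 20 members fell. The share of all transcripts was not counted under the block, so this number has no background beside it. The other counts of this step come from the fit without the block. Because the members were selected with a peak at or before 10 min, a fall after it was favoured by the selection, in this step and the next. From 1 h to 2 h, 10 members fell, against 8.52% of the transcripts tested, beside 520 of the 1120 other dark-raised transcripts. Of these 10, 6 fell at least 2-fold, against 3.18% of the transcripts tested. The median log2 difference of the 40 members was -0.75 in the first step and -0.70 in the second, where that of the other dark-raised transcripts was -0.53 and -0.49 and that of the transcripts tested was near 0 (-0.00 and -0.01). Without the block, a fall in both steps was found in 3 members, the ranks 2, 3 and 19. Falls in both steps were not counted over all transcripts. Without all libraries of replicate number 1 or of number 3, 7 members changed from 30 min to 1 h, and without 1 h replicate 2 the number was 22. Leaving out a single library gave 9 for 1 h replicate 1, for 1 h replicate 3 and for 30 min replicate 2. From 1 h to 2 h the count was 3 without replicate number 3, 4 without 2 h replicate 3 and 4 without 1 h replicate 2.

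The transcript 698482306, rank 2, had the highest mean of the members at 0 min and the largest ratio of 0 min to control. At 2 h and at 6720 min other members had higher means. It was named after its values were seen. Its control libraries held 1.959, 1.842 and 1.153 CPM, and its 0 min libraries 753.4, 1065.0 and 882.6 CPM, a ratio of 514 between the means with 0.1 added. At 30 min it stood at 611.1, 947.7 and 647.7 CPM, and at 1 h at 75.32, 143.4 and 71.91 CPM. All 3 libraries at 1 h were below all 3 at 30 min, and the log2 difference was -2.81 (SE 0.54, adjusted p = 0.00057). With the replicate block it was -2.84 (edgeR adjusted p = 0.000297). At 2 h the levels were 30.48, 47.21 and 19.8 CPM, all below the 1 h libraries. The step from 1 h to 2 h was a fall of -1.61 in log2 (SE 0.52, edgeR adjusted p = 0.03314). At 8 h the libraries parted, with 214.4 and 180.3 CPM in replicates 1 and 3 and 20.67 CPM in replicate 2. The 16 h libraries lay together at 19.54, 14.0 and 19.44 CPM, below all 3 libraries at 8 h. That step was -2.96 in log2 (SE 0.55, edgeR adjusted p = 0.0008435). Without all libraries of replicate number 3 the difference was -2.80 and the adjusted p was 0.053. At 6720 min it held 23.17, 43.92 and 39.41 CPM, far above its control and far below its level in darkness.

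**Figure D2:**
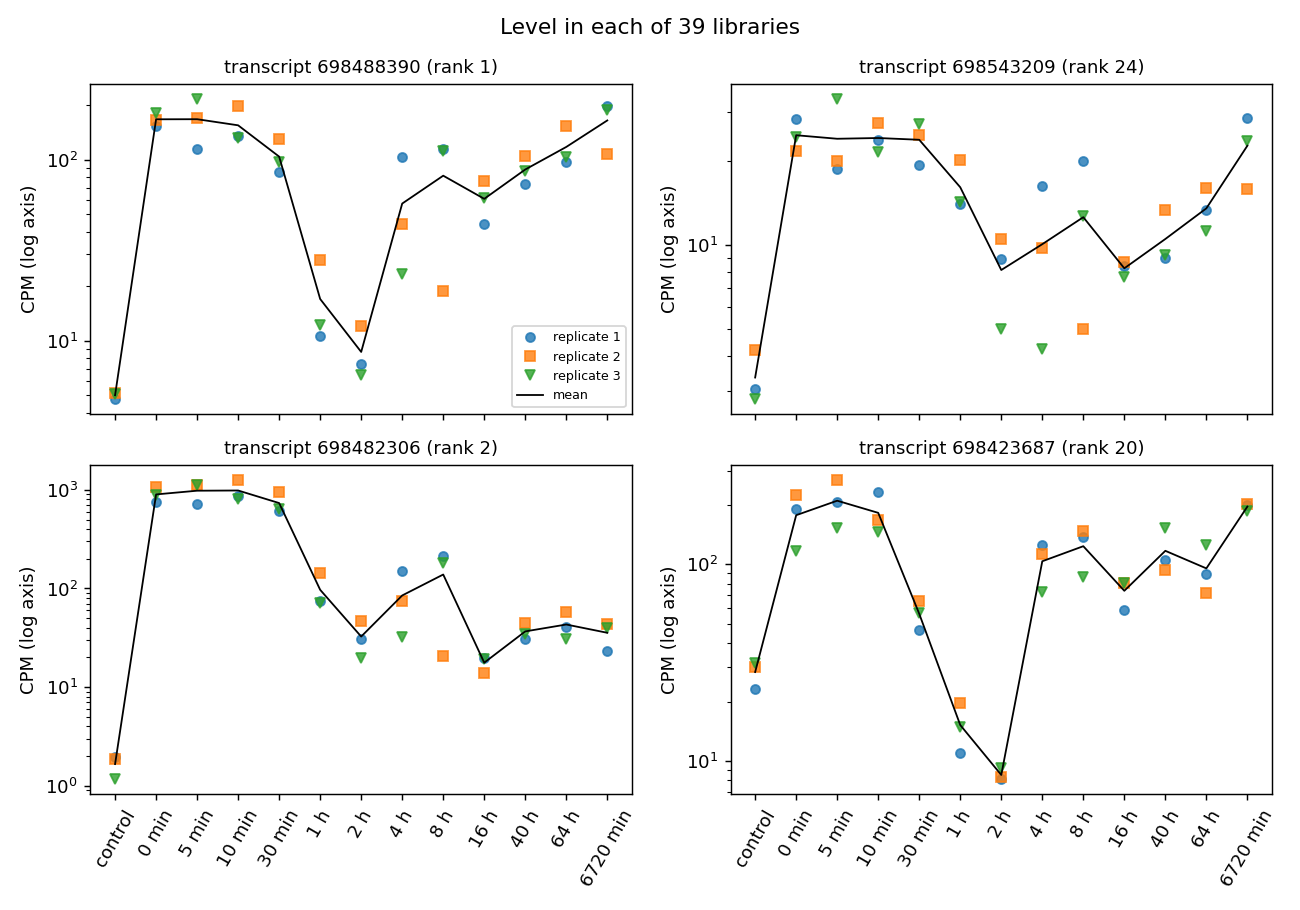
CPM on a log axis (y) of 4 members in the 13 groups (x), with one marker shape per replicate number and a line through the group means. Transcripts 698488390 (rank 1) and 698423687 (rank 20) drop by 2 h and stand at 107.7 to 204.0 CPM at 6720 min. Transcript 698482306 (rank 2) stays far below its 0 min level from 1 h on, and 698543209 (rank 24) reaches 28.44 CPM in 1 library at 6720 min.

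From 2 h to 4 h part of the members rose again. In this step 14 of the 40 members rose, against 7.49% of the transcripts tested, and 1 fell, against 8.95%. Of the 14, 13 rose at least 2-fold, against 2.25% of the transcripts tested. Of the same 14, 10 had fallen from 30 min to 1 h. A fall followed by such a rise was not counted over all transcripts, so the 10 describe the members only. Among the 1120 other dark-raised transcripts 33 rose and 277 fell in the same step. At 2 h 24 members had a mean at least 2 times control, and the rest had to rise by 16 h to pass the late floor. The floor thus favoured a rise after 2 h in the members, and the difference between the lists was not tested. The median log2 difference was 0.46 over the 40 members, -0.28 over the other dark-raised transcripts and -0.01 over all tested. In 14 members all 3 libraries at 4 h were above all 3 at 2 h, as in 15.1% of the transcripts tested and in 66 of the 1120 other dark-raised transcripts. The rises fell mainly on members with a deep trough, with 6 of the 6 members that went below control, 5 of the 12 at 1 to 2 times control and 3 of the 22 above that. That split was made on the lowest mean of 30 min to 8 h, which includes 2 h, so it favours a later rise in the first class.

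The number called from 2 h to 4 h depended on the libraries of replicate number 1. The 14 members had a median log2 difference of 2.32 with all libraries. Without replicate number 1, all 14 were still higher at 4 h with a median of 1.52, and 2 were still called. Without 4 h replicate 1 alone, 10 were called, with a median of 1.45.

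The transcript 698423687, rank 20, had the deepest trough among the members. It was named after its values were seen. Its control libraries held 23.42, 30.22 and 31.55 CPM, and the dark level was 190.6, 226.5 and 116.4 CPM. It fell from 46.33, 65.13 and 56.97 CPM at 30 min to 11.08, 19.84 and 14.93 CPM at 1 h, with a log2 difference of -1.78 (SE 0.31, edgeR adjusted p = 0.0001478). With the replicate block the difference was -1.79 (edgeR adjusted p = 7.84e-05). At 2 h it stood at 8.083, 8.276 and 9.203 CPM, so that every library was below every control library and the mean was 0.3025 of control. At 4 h it held 125.8, 112.8 and 72.87 CPM. The rise from 2 h to 4 h was 3.58 in log2 (SE 0.33, edgeR adjusted p = 7.548e-09), and with all libraries of one replicate number or any single library of these times left out it ran from 3.42 to 3.86 and was called each time. The level was 58.96, 80.76 and 80.69 CPM at 16 h and 200.3, 204.0 and 186.1 CPM at 6720 min. This second rise was 1.55 in log2 (SE 0.30, edgeR adjusted p = 0.0001781), and all 3 libraries at 6720 min were above all 3 at 16 h.

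The rank 3 transcript also had a trough below control, with a wide spread between libraries after it. Its control libraries held 10.62, 11.45 and 16.7 CPM, its 0 min libraries 170.3, 176.6 and 186.6 CPM and its 2 h libraries 4.755, 5.443 and 5.447 CPM. All 2 h libraries were below all control libraries. At 4 h the values were 139.3, 37.35 and 11.88 CPM, which spread widely but were all above 2 h (log2 difference 3.54, SE 0.60, edgeR adjusted p = 0.000118). At 8 h they were 176.8, 15.91 and 143.9 CPM, and at 16 h they came together again at 69.85, 74.41 and 68.65 CPM.

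The ranks 5, 6 and 8, the stretch of neighbours, were members of low level that also had a mean below control. Rank 5 held 1.219, 1.053 and 0.9227 CPM in control, 9.567, 8.163 and 9.532 CPM at 0 min and 0.4226, 0.7221 and 0.322 CPM at 2 h. At 4 h it held 11.95, 2.863 and 1.357 CPM, with a log2 difference from 2 h of 3.47 (SE 0.58, edgeR adjusted p = 9.835e-05). Replicate 1 was far above the other libraries there. The differences of ranks 6 and 8 from 2 h to 4 h were 2.75 and 2.65. From 16 h to 6720 min these 3 members had log2 differences of 0.21, 0.22 and -0.08, none of them called, with adjusted p of 0.7564, 0.7002 and 0.8965 in edgeR.

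The member that fell from 2 h to 4 h was rank 39. It held 24.57, 32.38 and 19.21 CPM at 2 h and 15.34, 16.79 and 14.1 CPM at 4 h. All 4 h libraries were below all 2 h libraries, with a log2 difference of -0.73 (SE 0.25, edgeR adjusted p = 0.03889).

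**Figure D3:**
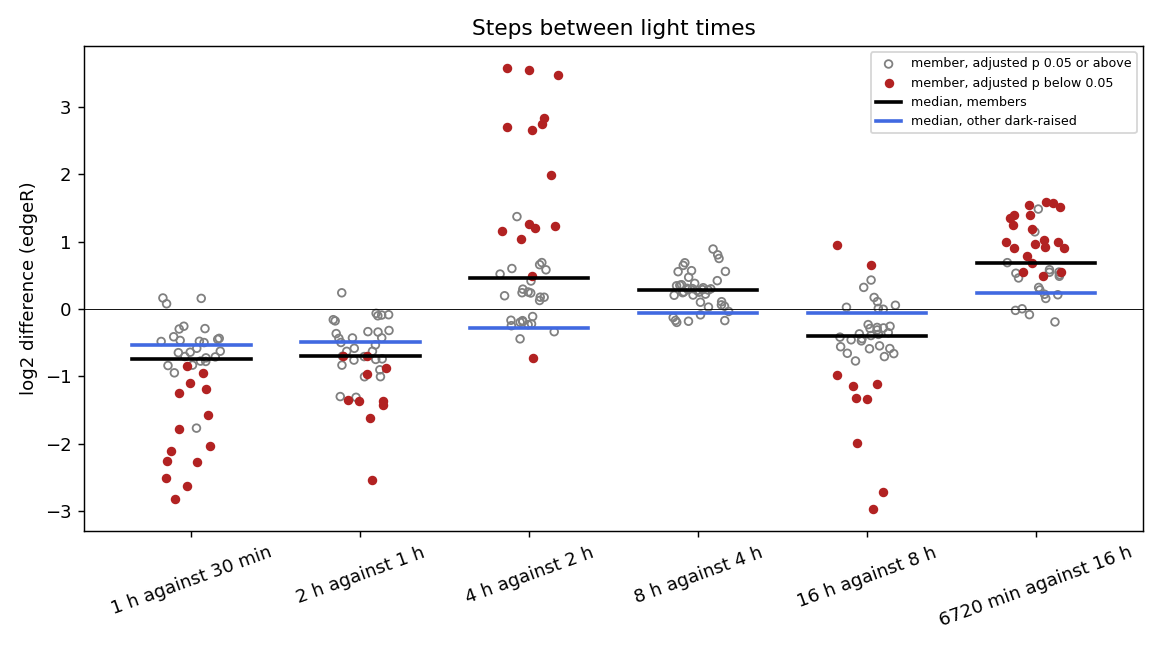
Log2 differences from edgeR (y) of the 40 members in 6 steps between light times (x), filled where the adjusted p was below 0.05, with bars for the median of the members (black) and of the 1120 other dark-raised transcripts (blue). The medians part at 4 h against 2 h, where they are 0.46 and -0.28, a difference favoured by the late floor that separated the lists.

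Between 4 h and 8 h no member changed in edgeR (0), and neither did any transcript tested (0%). At an unadjusted p below 0.05 there were 1174 transcripts and 0 members, and DESeq2 called 1 transcript and 0 members. Without 4 h replicate 1, edgeR called 3 members. The share of all transcripts was not counted in that fit, so the 3 have no background beside them. The members' median log2 difference was 0.29, with 33 of 40 above 0, as were 414 of the 1120 other dark-raised transcripts and 21972 of the 42181 tested. At 8 h 35 members were above control, against 11.5% of the transcripts tested, and 207 of the 1120 other dark-raised transcripts were. The control libraries were used by the rule, so this count is not independent of the selection.

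At 2, 4 and 8 h the libraries of a time differed more from each other in the members than in the median transcript. At 2 h replicate 3 was the lowest library in 34 of 40 members and in 43.05% of the transcripts tested. At 4 h replicate 3 was the lowest library in 36 members and in 31.22% of the transcripts tested. At 8 h replicate 2 was the lowest in 37 members and in 28.05% of the transcripts tested. The highest library was a median of 1.854 times the lowest at 2 h, 1.841 times at 4 h and 2.176 times at 8 h over the members, where all transcripts tested had 1.348, 1.372 and 1.441. At 16 h the figures were 1.274 for the members and 1.285 for all tested. In 16 members replicate 2 at 8 h was under 0.5 of both other libraries, which held for 2.7% of the transcripts tested, and 11 of these 16 are among the 14 that rose from 2 h to 4 h. In 6 members replicate 3 at 4 h was under 0.5 of both others (1.761% of the transcripts tested), and all 6 were among those low in replicate 2 at 8 h. Why these libraries stood low was not tested.

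**Figure D4:**
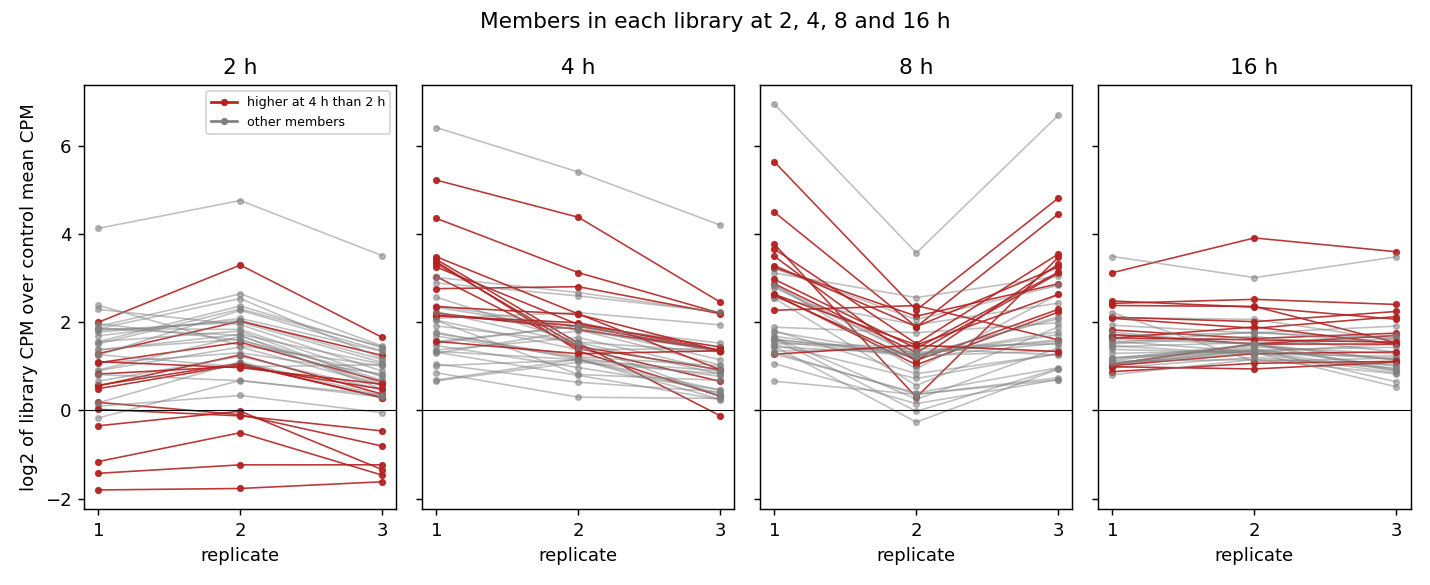
Log2 of each library's CPM over the control mean (y) for replicates 1, 2 and 3 (x) at 2, 4, 8 and 16 h, one line per member and red for the 14 that rose from 2 h to 4 h; lines join one member's libraries and replicates have no order. Replicate 3 lies low at 2 h and 4 h and replicate 2 at 8 h, and at 16 h the lines are nearly level.

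From 8 h to 16 h, 8 members fell, against 6.05% of the transcripts tested, and 2 rose, against 3.99%. The median log2 difference of the members was -0.41. The late floor used 16 h, which favoured members that were high there. The 8 that fell were the ranks 2, 4, 7, 12, 14, 19, 28 and 38. Rank 4 held 17.5, 1.621 and 9.874 CPM at 8 h and 1.749, 1.722 and 0.9299 CPM at 16 h, a log2 difference of -2.71 (SE 0.65, edgeR adjusted p = 0.007322). Its libraries overlapped between the 2 times through replicate 2 at 8 h. Rank 7 held 11.35, 7.7 and 10.8 CPM at 8 h and 5.596, 5.438 and 3.889 CPM at 16 h, with no overlap (log2 difference -0.98, SE 0.27, edgeR adjusted p = 0.01567). Those that rose were the ranks 27 and 31, by 0.95 (SE 0.28, edgeR adjusted p = 0.02487) and 0.66 (SE 0.18, edgeR adjusted p = 0.01614). Rank 31 went from 6.438, 5.218 and 6.596 CPM to 9.244, 11.56 and 7.566 CPM. Without replicate number 1 or number 3, 1 member changed in this step, and without 8 h replicate 1 the number was 6.

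Over the following days part of the members rose by the test, and the rest were not called in either direction. From 16 h to 6720 min, times of day that match, 21 of the 40 members rose, against 16.1% of the transcripts tested, and none fell (0, against 15.0%). Of the 21, 10 rose at least 2-fold, against 7.39% of the transcripts tested and 129 of the 1120 other dark-raised transcripts. Among the 1120 other dark-raised transcripts 326 rose and 81 fell. The members' median log2 difference was 0.68, with 37 of 40 above 0, where the other dark-raised transcripts had 0.23 and all tested 0.04. It was above 0 in 755 of the 1120 and in 22342 of the 42181 transcripts tested. In 28 members all 3 libraries at 6720 min were above all 3 at 16 h, as in 17.6% of the transcripts tested and 308 of the 1120 (27.5%). In 18 members the mean was higher at each late time than at the one before it, and in 0 members it was lower each time. At 6720 min 27 members were at 0.5 or more of their 0 min level, and 6 at 0.9 or more. Neither the course of the late means nor this share of the dark level was counted over all transcripts, so both describe the members only.

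Both 16 h and 6720 min entered the rule through the floor, though not their difference. With library totals as the only scaling, the median of all transcripts tested moved by -0.13 in log2, and 16 members changed. The rise was called in 5 members without replicate number 1, in 7 without number 3 and in 8 without 6720 min replicate 1. It was called in 11 without 16 h replicate 3, in 12 without 16 h replicate 1 and in 13 without 6720 min replicate 3. All 21 members were higher at 6720 min in each of the 9 fits that left out a replicate number or a single library.

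**Figure D5:**
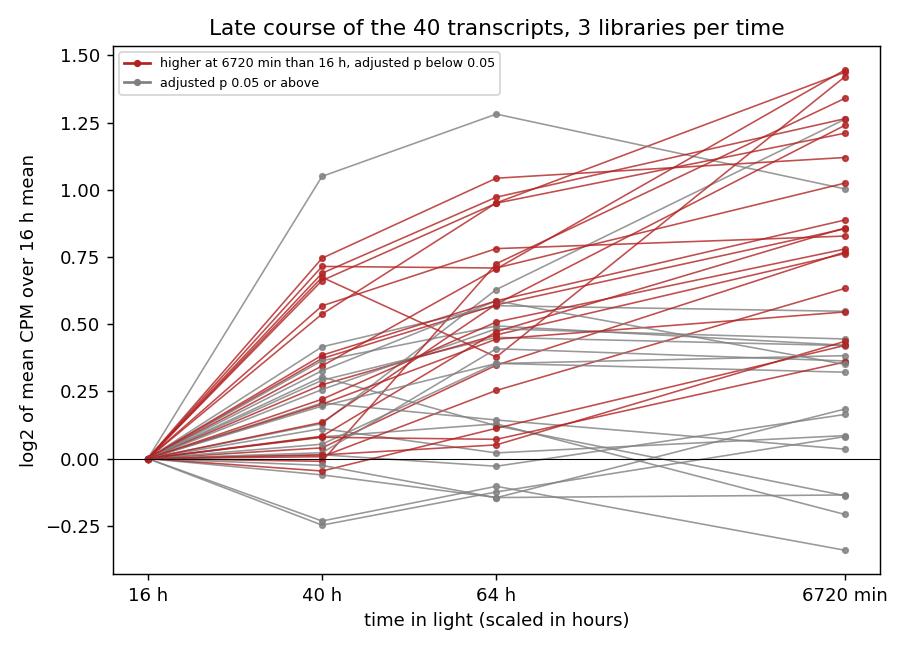
Log2 of each member's mean CPM over its own 16 h mean (y) at 16, 40 and 64 h and 6720 min in light (x), n = 3 libraries per time, red for the 21 members that rose from 16 h to 6720 min in edgeR and grey for the rest. Most lines rise, and the 21 lie above 0 at 6720 min.

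The transcript 698488390, rank 1, had one of the 2 largest rises from 16 h to 6720 min among members that met the naming rule, and the highest lowest-late ratio of all, 11.93. Its control libraries held 4.789, 5.132 and 5.075 CPM, and its 0 min libraries 154.2, 166.0 and 180.6 CPM. It stood at 7.396, 12.11 and 6.493 CPM at 2 h, 1.719 times control by the means. At 4 h it held 103.9, 44.29 and 23.36 CPM, all above the 2 h libraries (log2 difference 2.71, SE 0.51, edgeR adjusted p = 0.0004289). Without replicate number 1 that difference was 1.91 with an adjusted p of 0.113. At 16 h it held 44.27, 76.41 and 61.5 CPM and at 6720 min 198.1, 107.7 and 188.0 CPM, with no overlap. The log2 difference was 1.58 (SE 0.48, edgeR adjusted p = 0.01161), and the 6720 min mean was 0.986 of the 0 min mean. The call was lost without replicate number 1 (1.26, adjusted p 0.191) and without number 3 (1.44, adjusted p 0.144). It was also lost without 16 h replicate 1 (1.38, 0.0706), 6720 min replicate 1 (1.43, 0.051) or 6720 min replicate 3 (1.35, 0.0562).

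The transcript 698543209, rank 24, was the other. It held 3.048, 4.211 and 2.826 CPM in control, 28.17, 21.73 and 24.29 CPM at 0 min and 8.928, 10.5 and 5.018 CPM at 2 h. At 16 h it stood at 8.394, 8.701 and 7.693 CPM and at 6720 min at 28.44, 15.94 and 23.65 CPM, again with no overlap. The log2 difference was 1.59 (SE 0.37, edgeR adjusted p = 0.001227). From 2 h to 4 h this member did not pass the test, and its 4 h libraries were 16.25, 9.761 and 4.235 CPM.

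In 7 members, the ranks 21, 22, 30, 32, 33, 34 and 35, no tested step in light passed. These were the steps between consecutive times from 30 min to 16 h, and that from 16 h to 6720 min. Changes from 0 to 30 min or over several steps were not tested, so the members need not be level. Their ratios of 6720 min to 0 min ran from 0.3785 (rank 21) to 0.8339 (rank 35). The share of all transcripts with no call was not counted. Rank 32 held 2.787, 3.377 and 3.057 CPM in control, 14.7, 15.82 and 16.53 CPM at 0 min, 8.928, 15.5 and 8.532 CPM at 2 h and 9.446, 8.044 and 9.426 CPM at 6720 min. All libraries at those light times were above all control libraries. Rank 33 held 3.44, 5.263 and 4.527 CPM in control, 10.67, 21.61 and 11.4 CPM at 2 h and 11.27, 12.4 and 11.21 CPM at 6720 min.

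Because the rule used all libraries, the late level was also read in libraries that it did not use. The rule was applied to 2 replicate numbers and the ratios to control were taken in the third. With replicate 1, 2 or 3 held out, 52, 36 and 49 transcripts were selected, of which 33, 28 and 37 are among the 40, so these lists are partly different ones. The median of their lowest late ratio in the held-out libraries was 2.059, 2.834 and 2.136. All 4 late times were above control in 45 of 52, 36 of 36 and 45 of 49 transcripts, and all 4 were at least 2 times control in 27, 28 and 27. Thus part of each selection (51.92%, 77.78% and 55.1%) kept the 2-fold floor in libraries not used to choose it. The same shares were not counted over all transcripts or the other dark-raised transcripts. These counts therefore have no background beside them and describe the selected lists only.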

How the data were processed

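Raw counts per transcript were deposited by the authors, 1 table for each of the 39 libraries, with no normalization. The submitters' processing notes list FastQC 0.10.1, BWA 0.70 and SAMtools 1.0 with no roles. Not given in the sources used here are the reference, the counter, the strand setting and the treatment of reads that match several sequences. Reads of near-identical copies could thus be split between transcripts. Part of the extraction text in the labels describes another design and was not used.

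Membership and CPM used library totals. Tests used edgeR 4.0.16 in R 4.3.3 on the counts of all 39 libraries, with TMM scaling, 1 mean per group and the quasi-likelihood test. Low counts were filtered with filterByExpr (minimum count 10, minimum total 15), which left 42181 of 53725 transcripts. P-values were adjusted by Benjamini-Hochberg across the whole tested table, and called, rose or fell means an adjusted p below 0.05. The SE is the log2 difference divided by the square root of F. The code was tested on simulated data. Replicates are separate pools of plants, per the labels' protocols.

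Alternatives were DESeq2 1.42.0, library totals, no filter, a replicate block, only the groups compared, other membership rules and libraries left out. Replicate numbers paired the samples most strongly in 1 h against 30 min, where all 3 same-numbered pairs deviated together (r 0.3845, 0.4051 and 0.7081 over transcripts). Members and lists were chosen with earlier results of these data known. Identifiers were to be named for the 2 largest rises and the 2 largest falls from 16 h to 6720 min among called members with at least 10 CPM and no overlap. No member fell (0), so ranks 2 and 20 were named after their values were seen. Gene and marker lists could not be used without gene names, so the labelled tissue was not checked against markers.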

Additional observations from a re-analysis of the deposited data

Results flagged for a closer look

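From 16 h to 6720 min of light, the excess over control changed in 21 of the 40 members at an adjusted p below 0.05 in edgeR's test of that difference. It was higher at 6720 min in all 21, against 16.1% of the transcripts tested, and lower in 0, against 15.0%. The rest did not pass the test. The count was 8 without 6720 min replicate 1 and 5 without all libraries of replicate number 1. Among the 1120 other dark-raised transcripts 326 rose and 81 fell, so a late rise was not particular to the members. Both times entered the rule through the late floor, though not their difference. The members include closely correlated neighbours, so the 21 are not counts of independent genes.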

How the results depend on the processing

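The number of members was 24 with 1 CPM added in ratios, 114 with a late floor of 1.5 and 15 with a floor of 3. TMM scaling gave 29, of which 27 are among the 40. Leaving out libraries gave 34 to 52, where the single libraries of dark and light groups were an alternative chosen after seeing the data. With the 15 members of the floor of 3, the members changed were 7 at 6720 min against 16 h, 7 at 1 h against 30 min, 6 at 2 h against 1 h, 9 at 4 h against 2 h, 5 at 16 h against 8 h and 15 in each comparison with control. These counts are lower because fewer members were counted. With the 29 members under TMM scaling, the scaling used in the tests, 14 changed at 6720 min against 16 h and 9 at 4 h against 2 h. The count was 10 at each of 1 h against 30 min, 2 h against 1 h and 16 h against 8 h. With library totals in place of TMM, the median of all transcripts at 0 min against control was higher by 0.23 in log2. At least 2-fold, 10 of the 40 changed from 16 h to 6720 min and 6 from 1 h to 2 h. Over the leave-outs the counts were 5 to 23 at 6720 min against 16 h, 7 to 22 at 1 h against 30 min, 3 to 13 at 2 h against 1 h, 2 to 19 at 4 h against 2 h, 0 to 3 at 8 h against 4 h, 1 to 10 at 16 h against 8 h, 28 to 39 at 8 h against control, and 40 throughout for 0 min and 6720 min against control.

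With the replicate block, 20 members changed at 1 h against 30 min, 12 at 2 h against 1 h, 16 at 4 h against 2 h, 10 at 16 h against 8 h, 22 at 6720 min against 16 h and 37 at 8 h against control. Shares of all transcripts were not counted under the block or in the fits that left out libraries. At 2 h against 1 h all 3 same-numbered pairs also deviated together over all transcripts, though less (r 0.06353, 0.1858 and 0.2853). The same held at 8 h against 4 h (r 0.1231, 0.119 and 0.0403). In every other comparison outside 1 h against 30 min at least 1 pair did not. Outside 1 h against 30 min r ran from -0.3432 to 0.3526 over all transcripts and from -0.7811 to 0.6063 over the 40 members. Over the members at 4 h against 2 h it was 0.1462, 0.1359 and 0.1752. In the main fit the samples were taken to share only a number. No named difference reversed. With TMM scaling the held-out late ratio of replicate 3 was 2.62, and the cause was not tested. Members under 1 CPM in control rest on few counts, so their ratios are imprecise.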
